A study of Oryza sativa with 6 samples.

Results

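The direct difference between short and long ferulic acid (FA) exposure was measured in rice roots, gene by gene, over 6 two-colour microarrays. On each array the RNA of FA-treated roots carried the red dye (Cy5) and the RNA of water-treated roots the green dye (Cy3), and the measured quantity was log2(FA/control), the log2 of the FA signal over the control signal of the same spot. The mean of the 3 short-exposure arrays minus the mean of the 3 long-exposure arrays was tested for every gene on the array that was bright enough. A difference of 1 means that the FA ratio was 2-fold higher at short than at long exposure, and a dye bias that is the same on all 6 arrays cancels in it. Of 29690 loci with a probe on the array, 19750 were tested, so the comparison covers genes across the whole array. No gene was picked by its measured difference, but a gene counted as bright enough when either channel was so on any array. A dim gene could therefore enter the test because its signal rose at short or at long exposure.

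Every sample was root RNA of seedlings of rice (Oryza sativa) cultivar TN-67, aged 6 days at the start of exposure. Seedlings of long exposure, FA-treated and control, were therefore older at harvest, and age at harvest and length of exposure cannot be told apart. Short exposure was 50 ppm FA with RNA of 1 and 3 h treatments pooled, and long exposure was 50 ppm FA for 24 h, with 3 biological replicates each. Each exposure had water-treated seedlings as its own control on the same arrays, so the controls differed between the exposures as well as the FA samples. Because the short samples were pools, a gene that responded at 1 h and one that responded at 3 h cannot be told apart. By the slide codes in the file headers, short replicates 1 and 2 lay on slide 1, short replicate 3 on slide 2 and all 3 long replicates on slide 3, and slide and long exposure cannot be told apart. Dyes were not swapped.

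Across probes, the ratios correlated at 0.90 to 0.91 between short arrays, on the same slide or not, at 0.73 to 0.78 between long arrays, and at 0.33 to 0.47 between a short and a long array. FA signals were well above background for 70.6 to 75.8% of probes per array and control signals for 68.1 to 74.1%. Of 7 root markers, 5 (the silicon transporters Lsi1 and Lsi2, RCc3, OsSHR1 and OsCASP1) were well above background in both channels on all 6 arrays. OsSCR1 was well above background only in the FA channel of 1 array, and QHB only in the control channel of 2 arrays. The summed processed FA signal of the 10 green-leaf markers was 2511 to 5753 on short and 4800 to 5424 on long arrays, against 141973 to 237803 and 139896 to 147290 for the root markers. One light-harvesting gene, Os01g0720500, was called higher (1.26, and 0.99 without a call under normexp with an offset of 50), and whether leaf RNA had a part in any result was not tested. The labels name the tissue as seedling roots and the methods for the arrays as root tips, a mixture of cell types, so fewer cells of a type and less RNA per cell cannot be told apart in any value given here.

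FA is a phenolic acid that rice straw releases as it decays, and it inhibits root growth of rice itself. Plants commonly handle such foreign compounds by oxidising them, attaching glucose or glutathione, and moving the products into the vacuole or out of the cell. Early transcript responses to stress often run through calcium, protein kinases and the hormones jasmonate, ethylene and abscisic acid (ABA), and many of the early genes, such as the JAZ repressors of jasmonate signalling, act as brakes on the pathway that switches them on. Gibberellin (GA) promotes and auxin regulates root cell elongation, which also needs enzymes that loosen the cell wall.

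The FA response differed between the exposures for 1696 loci, 8.59% of those tested. The ratio was higher at short exposure for 1127 loci (5.71%) and lower for 569 (2.88%), at an adjusted p under 0.1 and a difference of at least 1 in limma. Both channels were above background on all 6 arrays for 793 of the loci called higher and 438 of those called lower. Called loci were dim, with median processed signals of 310 (higher) and 348 (lower) against 573 over all tested loci. With a signal of at least 100 required on every array, 760 loci were higher and 408 lower of 16723 tested. At the level of probes, of which a locus can hold several, 1636 of 28357 (5.77%) were called higher and 710 (2.5%) lower. The balance depended on the limit of 1, since at an adjusted p under 0.1 alone 3813 loci were higher and 5432 lower. Differences that passed the limit were larger upward than downward. Among the loci called higher the median difference was 1.56 and 131 loci reached 3, whereas among those called lower the median was -1.26 and 5 loci reached -3. The largest fitted difference, 7.39, was that of Os01g0698800, a conserved hypothetical gene. It had 6.72, 6.12 and 6.87 at short exposure, with the control not well above background, and 0.00, -2.46 and 0.00 at long exposure, with FA below background, so that its value is a fitted one and no measure of fold. Without overlap between the 3 short and the 3 long ratios stood 1112 of the loci called higher and 557 of those called lower, where 22.2% of all tested loci had all short ratios above and 31.2% all below the long ones. For 16049 loci (81.3%) the whole 95% interval of the difference lay between -1 and 1. With raw signals corrected by normexp in place of the processed ratios, 240 to 348 loci were called lower and 876 to 1088 higher, and the share of calls that were higher was 75.8 to 78.7% in place of 66.5%. At the limit, 284 called loci had a difference from 1 to under 1.1 in size, and 356 loci that passed on p had 0.9 to 1.

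Most loci that responded at short exposure had a long mean within 0.5 of 0. They were picked by their short mean, which by itself favours a smaller long mean. Of 1388 loci with a mean short ratio of at least 1, the long mean was within 0.5 of 0 for 771, at least 1 for 220 and at most -1 for 8, and 933 were called higher. Of 547 loci with a short mean of at most -1, the long mean was within 0.5 of 0 for 396 and at most -1 for 36, and 250 were called lower. The long mean lay on the same side of 0 as the short mean for 1058 of the 1388 loci and 416 of the 547. The median long mean was 0.36 for the 1388 and -0.22 for the 547. Seen from long exposure, 403 loci had a mean of at least 1, and the short mean of 220 of these was also at least 1 while that of 96 lay within 0.5 of 0. The median short ratio of the 403 loci was 1.18. In contrast, 132 loci had a long mean of at most -1, and 36 of them had such a mean at short exposure too.

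**Figure D1:**
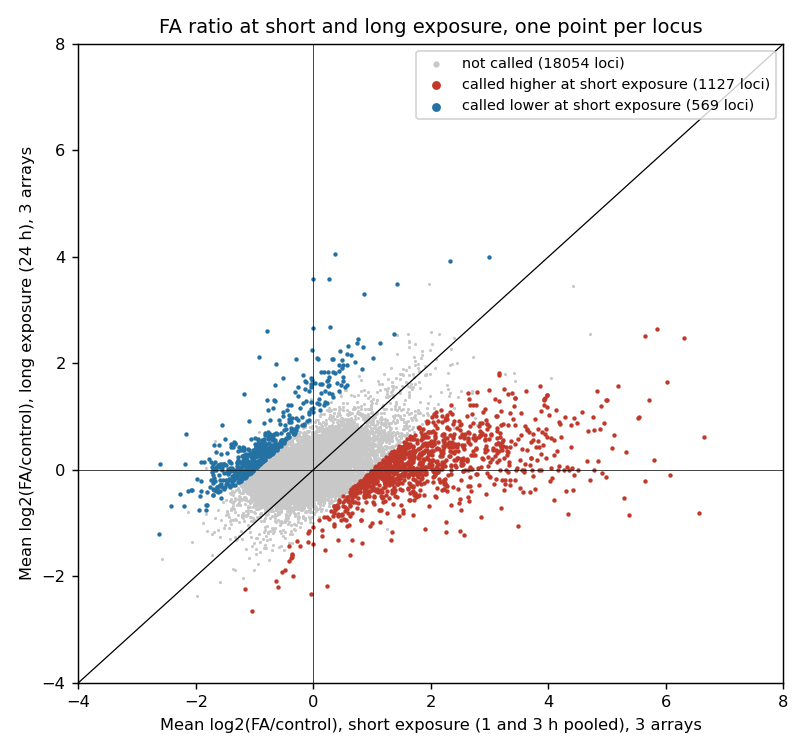
Mean log2(FA/control) of each tested locus at short exposure (horizontal axis, 3 arrays) against long exposure (vertical axis, 3 arrays), with the 1127 loci called higher at short exposure in red, the 569 called lower in blue and the other loci in grey. The red loci spread along the horizontal axis, with short ratios mostly above 1 and long ratios near 0, and the diagonal line marks equal ratios.

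The 10 largest increases were taken among called loci above background in both channels of all arrays, with no overlap of short and long ratios. They included a glutathione S-transferase, a UDP-glucosyltransferase and 2 genes of hormone synthesis families. The germin-like gene Os12g0155000, whose family holds cell wall proteins of defence, had log2 ratios of 3.80, 5.19 and 3.95 at short exposure and 0.38, -0.48 and 0.27 at long exposure. The short and the long ratios lay far apart, with a difference of 4.26 (95% interval 3.33 to 5.18, adjusted p = 0.000357). The plastocyanin-like gene Os08g0138200 had 4.38, 4.84 and 5.15 at short exposure and 1.34, 0.45 and 0.44 at long exposure, a difference of 4.04. Os01g0716500, which carries a motif for binding S-adenosylmethionine, had 4.38, 4.43 and 3.66 at short exposure and 0.69, -0.12 and 0.48 at long exposure. Os02g0755900, a UDP-glucosyltransferase of the enzymes that attach glucose to small molecules, had 4.88, 5.19 and 4.87 at short exposure and 1.47, 0.16 and 2.32 at long exposure, and its 3 long arrays spread more widely than its short ones although the sets stayed apart. GSTU22 (Os10g0525600), a tau-class glutathione S-transferase, had 4.99, 5.57 and 5.02 at short exposure and 1.88, 1.11 and 1.71 at long exposure, so that it was well above its control at both exposures and further above at short exposure.

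The remaining 5 of these loci were close to their control at long exposure or moderately above it. The AAA ATPase Os06g0697500 had 3.22, 3.10 and 3.41 at short exposure and -0.17, -0.44 and -0.53 at long exposure, with a difference of 3.62 (95% interval 3.32 to 3.93, adjusted p = 2.23e-05). Phytoene synthase Os09g0555500, which commits precursors to carotenoids, had 3.29, 3.67 and 3.77 at short exposure and 0.41, -0.73 and 0.20 at long exposure. The oxophytodienoic acid reductase Os06g0215600, of the enzyme family that acts in jasmonate synthesis, had 4.04, 4.93 and 4.47 at short exposure and 1.01, 0.61 and 1.04 at long exposure. It was read by 4 probes, whose differences ran from 3.01 to 3.59. OsACO5, described with the ethylene genes, and the pleiotropic-drug-resistance ABC transporter Os01g0609300 had differences of 3.58 and 3.56. All 10 loci kept their call under every alternative that held them.

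The 10 largest decreases had smaller differences, and in them either the short ratio was below 0 or the long ratio above it. Os05g0162000 had -0.49, -1.16 and -1.11 at short exposure and 3.30, 2.60 and 0.47 at long exposure, a difference of -3.04 (95% interval -4.58 to -1.50, adjusted p = 0.0109), and its long arrays spread widely. The GDSL lipase-like gene Os01g0827700 had -2.49, -2.71 and -2.63 at short exposure and 0.05, 0.42 and -0.14 at long exposure. Its short ratios were all far below 0 and its long ratios near 0. GA3ox2, a GA synthesis gene described below with its pathway, was the opposite case, with a short mean of -0.64 ± 0.25 and a long mean of 1.99 ± 0.46 (SD, n = 3 each). Likewise CUT1 (Os03g0220100), a condensing enzyme for the very long fatty acids of waxes, had -0.19, 0.29 and 0.15 at short exposure and 2.30, 1.83 and 2.10 at long exposure, so that only its long ratios stood away from 0. Its 3 probes gave differences of -2.01 to -1.88.

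For the other 6 of these loci the short ratio was below 0 on every array. The ozone-induced-like gene Os02g0609200 had -1.14, -1.74 and -1.61 at short exposure and 0.47, 0.37 and 0.89 at long exposure. The PR-1a gene Os02g0786900, a pathogenesis-related protein, had -1.56, -2.03 and -2.00 at short exposure and 0.21, 0.12 and 0.13 at long exposure, a difference of -2.01 (adjusted p = 0.000118). Short ratios near or below -1 and long ratios mostly above 0 were also measured for the DNA-binding-protein-like Os03g0171300 (-2.07), the major sperm protein domain gene Os01g0829100 (-2.07), Os06g0218800 (-2.01) and the conserved hypothetical gene Os01g0864000 (-2.00). As for the increases, all 10 kept their call under every alternative that held them.

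**Figure D2:**
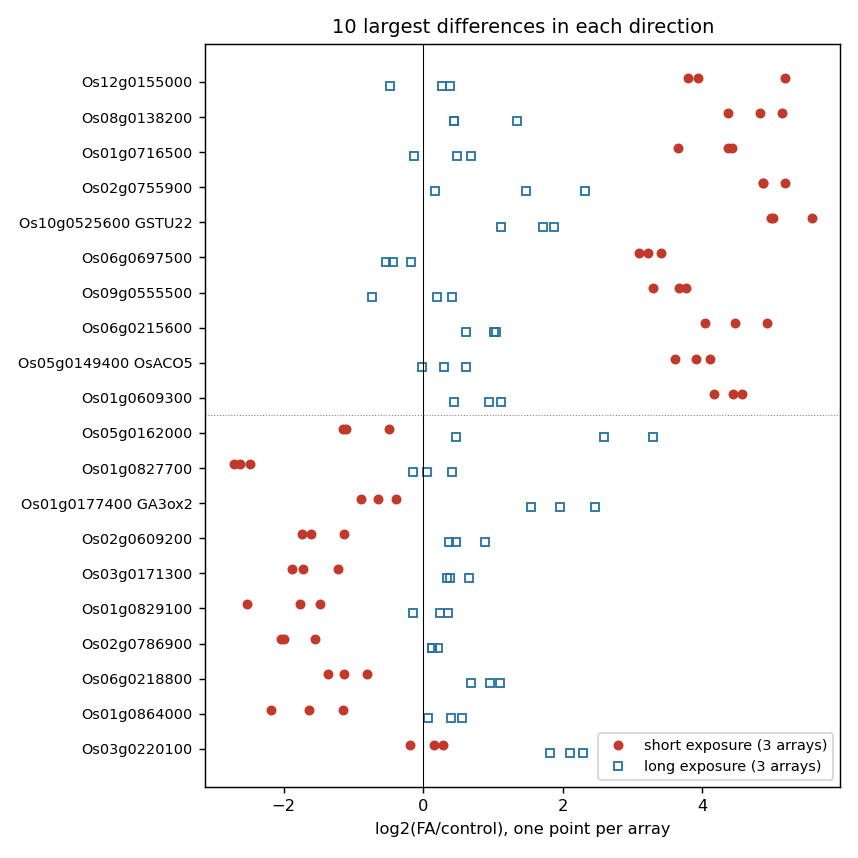
Log2(FA/control) on each of the 6 arrays for the 10 loci with the largest increase (upper block) and the 10 with the largest decrease (lower block) from long to short exposure, red circles for short and blue squares for long arrays. The loci were picked among called loci whose 3 short and 3 long values do not overlap, so that separation is part of the choice. The long values of the upper block lie mostly between 0 and 2.

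The alternative oxidases, mitochondrial enzymes that pass electrons to oxygen by a route that makes no proton gradient, were called higher for all 4 tested genes, with a median difference of 1.87 against -0.06 over all tested loci. Single channels carry array and labelling differences that a ratio cancels. In them the FA signal was called higher for 2 of the 4 and the control signal lower for 2. The median difference was 0.93 in FA roots and -1.13 in water controls, so that more of the family's difference was read in the control channel. AOX1b had log2 ratios of 4.81, 5.60 and 4.52 at short exposure, against 0.26, -0.34 and -0.30 at long exposure. Its difference was 5.10 (95% interval 4.42 to 5.78, adjusted p = 5.6e-05). Read in single channels the FA signal was higher at short exposure by 2.40 and the control signal lower, with a log2 difference of -2.71. AOX1b was not well above background in both channels on all arrays, so these sizes rest partly on dim signals. With that required, 2 of the genes remained, both called higher, with a median difference of 1.87. AOX1a had 2.17, 2.20 and 2.01 at short exposure and 0.04, -0.16 and -0.02 at long exposure, a difference of 2.17. AOX1c and AOX1d both differed by 1.56, with the AOX1c call lost under normexp with an offset of 50 (0.81 with loess, 0.85 with median centring). The long ratios of all 4 genes lay between -0.34 and 0.55.

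Glutathione S-transferases (GST) couple glutathione to foreign compounds. They were higher for 18 of 60 tested loci (30%, against 5.71% of all tested loci) and lower for none, with a median difference of 0.55. GSTF8 had 5.12, 5.22 and 4.50 at short exposure, where no array read its control well above background and FA was at least 14.6-fold above that control. Its long ratios of 2.57, -1.20 and 1.27 spread widely, and it was called higher, with no size of difference given because of the dim control. GSTU19 had 4.71, 5.52 and 4.77 at short exposure and 1.36 and 1.28 on the 2 long arrays with a usable spot. Of the 60 loci, 25 had a short mean of at least 1 and 8 had a long mean of at least 1, so part of the family responded at both exposures. GSTU47 was such a gene, with 4.72, 5.02 and 4.75 at short exposure and 1.66, 0.99 and 1.80 at long exposure. GSTU48 had 4.44, 4.77 and 4.50 at short exposure and 1.01, 0.29 and 1.94 at long exposure, and GSTU37 had the tight values 3.42, 3.38 and 3.13 at short exposure and 0.85, 0.72 and 0.96 at long exposure. In contrast, GSTU26 was called on its long side, with -0.36, -0.04 and 0.11 at short exposure and -1.18, -1.12 and -1.74 at long exposure, near its control at short exposure and below it at long exposure.

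Enzymes of the glutathione and ascorbate cycle, which remove peroxides, changed in single members. Over all tested loci 5.71% were called higher and 2.88% lower. Glutathione reductase-3 (Os10g0415300) had 2.15, 2.21 and 2.00 at short exposure and 0.08, 0.11 and 0.14 at long exposure, a difference of 2.01 (95% interval 1.80 to 2.22, adjusted p = 3.14e-05), while Glutathione reductase-1 stopped just under the limit at 0.99 (adjusted p = 0.00408). Of 8 monodehydroascorbate reductases, MDAR-11 (2.24) and MDAR-2 (1.75) were called higher. GPx01 was the one called of 5 glutathione peroxidases, at 1.36 (adjusted p = 0.000474). No call was made among 7 ascorbate peroxidases, whose differences ran from -0.07 to 0.39, or among 2 catalases, at -0.17 for CatA and 0.41 for CatB. Among 18 glutaredoxins, small thiol enzymes, 4 were higher, led by Grx_C2.1 with 3.10, 3.51 and 3.11 at short exposure and 0.26, 0.21 and 0.19 at long exposure, whose difference of 3.02 lay in the FA channel (3.02).

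JAZ genes encode repressors of jasmonate signalling that jasmonate itself induces. Of the 7 tested, 6 were called higher (85.7%, against 5.71% of all tested loci) and none lower, with a median difference of 1.77. The reverse-transcription PCR oligos that the study designed for 4 of these genes are shown because they give the stretch by which the study itself read each transcript. The first 4 lines are the forward and the last 4 the reverse oligos, each 20 bases long and written 5′ to 3′. OsJAZ1 (Os03g0180900) and OsJAZ6 (Os03g0180800) lie on chromosome 3, OsJAZ2 (Os10g0392400) on chromosome 10 and OsJAZ7 (Os09g0439200) on chromosome 9.
OsJAZ1 forward: gagctacaacatggccggta
OsJAZ2 forward: aggaagcacaggatcacgac
OsJAZ6 forward: cgtcacgtctgcgatttgag
OsJAZ7 forward: cgacgaaagtgcaagtgagg
OsJAZ1 reverse: cgatgggcatgtctggtagg
OsJAZ2 reverse: agaactctttgggtttgggc
OsJAZ6 reverse: cgccgcgataactagggtaa
OsJAZ7 reverse: actagcactagcaaccagcc

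OsJAZ2 moved most, with log2 ratios of 2.78, 3.08 and 3.37 at short exposure and -0.36, -0.18 and -0.24 at long exposure, a difference of 3.34 (95% interval 2.98 to 3.70, adjusted p = 3.43e-05). OsJAZ1 had 1.81, 2.45 and 2.46 at short exposure and 0.46, -0.15 and -0.09 at long exposure, and OsJAZ6 had 1.76, 2.02 and 2.46 at short exposure and -0.36, 0.24 and -0.09 at long exposure. In all 3 genes every short ratio was above 1.7 and every long ratio under 0.5. OsJAZ4, OsJAZ7 and OsJAZ5 differed by 1.77, 1.61 and 1.40. OsJAZ3 also had separate ratios, 0.39, 0.44 and 0.51 at short and -0.24 and -0.26 at long exposure on the usable arrays, but its difference of 0.70 (adjusted p = 0.00266) stayed under the limit of 1. No JAZ gene was called in the control channel except OsJAZ2, where the control signal was lower at short exposure (-1.11).

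Of 14 tested genes of jasmonate synthesis 2 were called, both higher (14.3%, against 5.71% of all tested loci). A further 9 had a difference above 0 without a call, and the median was 0.56. The allene oxide synthase OsAOS2, an early enzyme of the pathway, had 1.48, 1.34 and 1.28 at short exposure and -0.17, 0.04 and -0.10 at long exposure, a difference of 1.44 (adjusted p = 0.000114). OsJAR1;2, of the family that conjugates jasmonate to isoleucine, had 0.86, 1.01 and 0.84 at short exposure and -0.59, -0.41 and -0.80 at long exposure, so that its ratio was above 0 at short and below 0 at long exposure. OaAIM1 and OsDAD1;3 passed on p, at 0.00142 and 0.000499, with differences of 0.88 and 0.81. The lipoxygenase OsLOX2;5 went the other way, at -0.57 (adjusted p = 0.00216).

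In ethylene synthesis, ACS enzymes make the precursor ACC and ACO enzymes turn it into ethylene. Of 8 tested genes 3 were higher (37.5%) and 1 was lower (12.5%), where 5.71% and 2.88% of all tested loci were called. OsACO5 had 3.61, 4.11 and 3.91 at short exposure and 0.61, 0.30 and -0.02 at long exposure, a difference of 3.58 (95% interval 3.14 to 4.02, adjusted p = 4.75e-05). OsACS2 had 2.69, 3.39 and 2.75 at short exposure and 0.46, 0.67 and 0.22 at long exposure, and OsACO4 had 2.27, 2.59 and 2.09 at short exposure and 0.83, 1.10 and 0.39 at long exposure, so that OsACO4 was above its control on every array of both exposures. OsACO7 was lower, with -0.85, -0.97 and -1.02 at short exposure and 0.34, 0.68 and 0.65 at long exposure. That difference of -1.50 lay in the control signal (1.82) rather than the FA signal (0.32), and the call was lost under all 3 normexp settings, at -0.61, -0.56 and -0.92. Among 13 ethylene signalling genes only the EIN3-like OsEIN3;4 was called (7.69%), higher at 1.00. That call was lost when any of 4 single arrays was left out (0.89 to 0.99). The ethylene receptor OsETR2;1 had -0.87 (adjusted p = 0.000809).

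Genes of GA metabolism were called in both directions. The GA 2-oxidases GA2ox9 and GA2ox3, which inactivate GA, were called higher of 6 tested deactivation genes (33.3%, against 5.71% of all tested loci). GA2ox9 had 2.81, 3.19 and 3.01 at short exposure and -0.40, -0.35 and 0.33 at long exposure, and GA2ox3 had 2.82, 3.19 and 3.09 at short exposure and 0.15, -0.16 and 0.59 at long exposure, with differences of 3.14 and 2.84. In both genes the long ratios lay around 0, and the FA channel held the difference (3.42 and 2.51). The synthesis genes GA3ox2, which makes bioactive GA, and GA20ox1, which acts one step before it, were called lower of 5 tested. This was 40%, against 2.88% of all tested loci. GA3ox2 had -0.65, -0.89 and -0.39 at short exposure, against 2.46, 1.97 and 1.55 at long exposure, a difference of -2.63 (95% interval -3.19 to -2.08, adjusted p = 0.000307), and its FA signal was lower at short exposure (-2.29) while the control differed by 0.34. GA20ox1 had -0.49, -0.94 and -1.11 at short exposure and 0.40, 0.57 and 0.59 at long exposure, but here the control signal was higher at short exposure by 1.74 and the FA signal by 0.38, and under normexp with an offset of 50 and loess its difference was -0.99. None of 7 GA signalling genes, the DELLA repressor SLR1 (-0.21) and the receptor GID1 (0.23) among them, was called.

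ABA genes were called higher in 7 of 34 tested synthesis and signalling loci and lower in none. That was 22.2% of 9 synthesis and 20% of 25 signalling loci, against 5.71% of all tested loci. OsNCED2, of the enzymes that limit the rate of ABA synthesis, had 5.22, 4.27 and 4.79 at short exposure, where the control was not well above background and FA was at least 23-fold above it, against 0.71, 0.65 and 1.62 at long exposure. OsNCED1 had 1.26, 1.16 and 1.32 at short exposure and 0.53, 0.46 and 0.21 at long exposure, a difference of 0.84 (adjusted p = 0.00137) that stayed under the limit. Both were therefore above their controls on all 6 arrays. OsABA4 was called higher over widely spread short arrays, but neither channel was well above background at long exposure and the call was lost in a test without limma's shared estimate of variance. The protein phosphatase OsPP2C5, of a family that holds ABA signalling off, had 2.42, 1.94 and 2.22 at short exposure and -0.30, -0.45 and -0.37 at long exposure, a difference of 2.57 (95% interval 2.26 to 2.88, adjusted p = 4.59e-05). OsPP2C3 (1.11) and OsbZIP10 (1.31) were called as well, and both calls were lost under normexp with an offset of 50, at 0.99 and 0.63 with loess. OsPP2C3 was also lost without long replicate 2 (0.98) and OsbZIP10 without short replicate 2 (0.99).

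AUX/IAA genes are repressors of auxin signalling that auxin induces. Of 25 tested loci 7 were higher (28%, against 5.71% of all tested loci) and none lower, with a median difference of 0.57. OsIAA9 had 2.24, 2.28 and 2.25 at short exposure, against -0.78, -1.15 and -1.01 at long exposure, a difference of 3.24 (95% interval 2.98 to 3.49, adjusted p = 1.81e-05). The ratio was thus far above 0 in one exposure and near -1 in the other. OsIAA26 had 1.77, 1.81 and 0.78 at short exposure and -0.88, -0.91 and -0.78 at long exposure, and OsIAA14 differed by 1.65, a call lost under normexp with an offset of 50 (0.83 with loess). Of 20 auxin response factors none was called. In cytokinin metabolism the isopentenyltransferase OSIPT3, which makes cytokinin, had 1.13, 1.22 and 1.05 at short exposure and -0.47, -0.42 and -0.25 at long exposure, and the cytokinin oxidase OsCKX5, which degrades it, had 2.47, 2.36 and 1.80 at short exposure and 0.18, 0.24 and 0.54 at long exposure. OsIPT4 was lower at -1.04, a call lost under 4 scalings (-0.99 when arrays were centred, -0.35 to -0.57 under normexp) and when either of 2 single arrays was left out (-0.99 each). The response regulator OsRR6, of a family that cytokinin induces, was higher at 1.44 (adjusted p = 0.00108). None of 27 brassinosteroid loci was called.

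**Figure D3:**
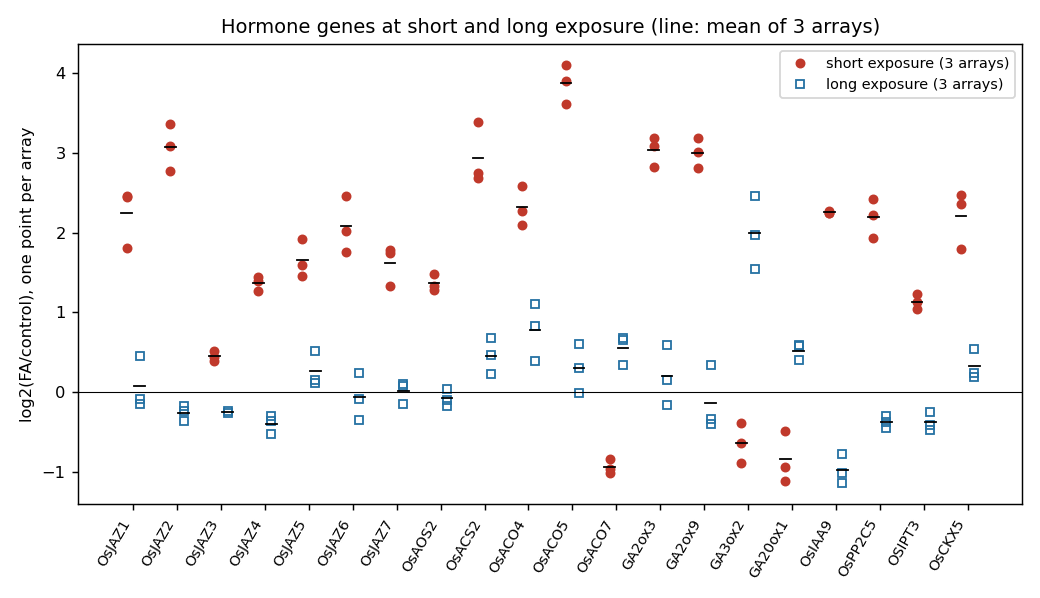
Log2(FA/control) on each array for 7 JAZ genes and 13 other hormone genes, with red circles for the 3 short arrays, blue squares for the 3 long arrays and a line at each mean. All genes drawn but OsJAZ3 were picked from called loci, so their directions are those of the calls. Not every called hormone gene is drawn, and OsIPT4, called lower, is among those left out. Short values lie above long values in 17 of the 20 genes, and below them in OsACO7, GA3ox2 and GA20ox1.

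Receptor-like kinases (RLK), the cell surface kinases that sense ligands, were higher for 54 of 424 tested loci (12.7%) and lower for 19 (4.48%), where 5.71% and 2.88% of all tested loci were called, with a median difference of -0.02 that was above 0 under some scalings. These counts were smaller under normexp with an offset of 50 and loess (34 higher and 6 lower) and with a signal of at least 100 required on every array (31 higher), and 12 were lower without short replicate 2. Called members stood in several subfamilies. Of 16 cysteine-rich DUF26 kinases 6 were higher and 1 lower, of 24 LRR-VIII kinases 7 were higher and none lower, and of 38 cytoplasmic RLCK-VII kinases 7 were higher and none lower. Under normexp with an offset of 50 the DUF26 count fell to 3 higher and none lower and the RLCK-VII count to 4 higher. Among those called higher, Os08g0374600 had 6.98, 6.69 and 6.28 at short exposure, where FA was at least 43.6-fold above a control that was not well above background, against 1.83, -0.11 and 0.15 at long exposure. The DUF26 kinase Os06g0690200 had 3.09, 3.41 and 3.39 at short exposure and 0.55, 0.21 and 0.30 at long exposure. Os04g0633900, of the same subfamily, went the other way with -2.15, -1.40 and -2.96 at short exposure and 0.87, 0.48 and 0.68 at long exposure, a difference of -2.85 (adjusted p = 0.00117). That call was lost under normexp with an offset of 50 (-0.88 with loess), and the locus was not well above background in both channels on all arrays.

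In the LRR-VIII group, Os05g0305900 had 1.13, 1.37 and 0.86 at short exposure and -0.78, -0.57 and -0.93 at long exposure and Os08g0203100 had 1.58, 1.95 and 1.35 at short exposure and -0.19, 0.06 and -0.59 at long exposure. Both had positive ratios at short exposure and mostly negative ones at long exposure. The RLCK-VII kinases Os03g0407900 and Os01g0973500 differed by 1.85 and 1.42, and the 3 short ratios of Os01g0973500 lay within 0.01 of each other (1.40, 1.39 and 1.39). Of 25 wall-associated kinases 4 were higher (16%, against 5.71% of all tested loci), or 1 when both channels had to be well above background on all arrays. In Os12g0614800, one of them, the short ratios of 0.40, 0.69 and -0.37 were near 0 and the long ratios of -1.34, -1.94 and -3.26 low. Of 19 SD-2b kinases 3 were higher (15.8%) and 1 lower (5.26%, against 2.88% of all tested loci), led by Os11g0168600 at 1.90 (adjusted p = 0.00115). The lower one, Os05g0166300, had widely spread short ratios of -1.59, -3.36 and -2.95 against -1.52, -0.59 and -1.51 at long exposure, and its call (-1.43) was lost under all 3 normexp settings (-0.24, -0.19 and -0.56), with no filter on signal, without the shared variance and without any of 3 single arrays (-1.27 to -1.06).

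Calcium genes were called in both directions. OsCML16 and OsCML31, calmodulin-like calcium sensors, had 2.08, 2.01 and 1.80 at short exposure and -0.98, -0.39 and -0.70 at long exposure for OsCML16, and 3.78, 3.56 and 3.26 at short exposure and 1.00, 1.19 and 1.04 at long exposure for OsCML31. OsCML31 thus remained near 1 at long exposure while OsCML16 was below 0. OsCML17 was lower, with -2.11, -2.28 and -2.00 at short exposure and -0.45, -0.36 and -0.40 at long exposure. It was the one called lower of 24 calmodulin-type loci (4.17%), 4 being higher (16.7%), where 2.88% and 5.71% of all tested loci were called. Of 23 calcium-dependent kinases 3 were higher (13%), led by OsCPK21. Its difference of 1.71 came from short ratios of 0.16, 0.29 and 0.17 and long ratios of -1.35, -1.34 and -1.82. OsCPK4 had 1.01, 0.85 and 1.25 at short exposure and -0.75, 0.00 and -0.75 at long exposure. The 23 CIPK kinases had 2 called lower (8.7%), CIPK25 (-1.33) and CIPK27 (-1.08). Both calls were lost under normexp with an offset of 50 (-0.99 and -0.09 with loess).

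Of 57 MAPKKK genes, which head the MAP kinase cascade, 5 were higher (8.77%, against 5.71% of all tested loci), none was lower and 42 had a difference above 0, where 8548 of all 19750 loci had one. MAPKKK62 had 3.62, 4.17 and 3.28 at short exposure and -0.52, 0.70 and 0.07 at long exposure, a difference of 3.61 (adjusted p = 0.000363). It was not well above background in both channels on all arrays, so that size rests partly on dim signals. MAPKKK64 had 1.96, 2.18 and 1.94 at short exposure and 0.09, -0.04 and 0.02 at long exposure. No call was made among 6 MKK genes, the middle tier. Among 15 MPK genes MPK13 (1.39) and MPK6 (1.16) were higher. The FA signal of MPK6 differed by 0.36 and its control signal by -0.80. Phosphatases, which reverse kinase action, were higher for 8 of 98 loci (8.16%, against 5.71% of all tested loci) and lower for none, led by OsPP2C5, OsPP108 (2.05) and OsPP63 (1.94).

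Many AP2/ERF transcription factors act in ethylene and stress responses. Of 94 tested loci 12 were higher (12.8%, against 5.71% of all tested loci) and 2 lower (2.13%, against 2.88%). With a signal of at least 100 required on every array 6 were higher, and under normexp with an offset of 50 none was lower. AP2/ERF-58 (Os03g0860100) had 4.10, 3.69 and 3.64 at short exposure and 1.38, -0.07 and -0.73 at long exposure, a difference of 3.62 (adjusted p = 0.00154) that lay in the FA channel (3.93). Its signals were not well above background in both channels on all arrays, so those sizes rest partly on dim signals. AP2/ERF-98 had 2.87, 3.41 and 3.30 at short exposure, at least 8.52-fold above a dim control, and 0.08, -1.39 and -0.85 at long exposure. AP2/ERF-138 was low at both exposures and lower at short, with -2.43, -2.61 and -2.25 at short exposure and -0.75, -0.63 and -0.65 at long exposure, a call lost under normexp with an offset of 50 (-0.59 with loess). Of 50 C2H2 zinc-finger genes 6 were higher (12%) and 1 lower (2%), and under normexp with an offset of 50 there were 3 and none. C2H2-27 had short ratios of at least 3.56 on each array and long ratios of 0.85, 0.66 and 0.06. C2H2-35 had short ratios of 4.83, 4.66 and 4.65, at least 8.78-fold above a dim control, and long ratios of 0.49, -0.99 and -0.08.

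Of 68 bHLH genes 8 were higher (11.8%) and 5 lower (7.35%), where 5.71% and 2.88% of all tested loci were called. Of 68 bZIP genes 3 were higher (4.41%) and none lower. Under normexp with an offset of 50 no bZIP gene was called higher, and without short replicate 1 or long replicate 1 there were 5. The bHLH genes lower were 3 under normexp with an offset of 50 and loess, and 5 were higher with a signal of at least 100 required on every array. The bHLH gene Os01g0108600 had 1.79, 1.43 and 1.92 at short exposure and -0.91, -0.15 and -0.64 at long exposure, and Os06g0226500 had 1.39, 1.30 and 0.70 at short exposure and -0.52, -1.22 and -1.20 at long exposure. In both, FA was above the control at short exposure and below it at long exposure. Os03g0188400 showed the reverse, with -1.30, -0.90 and -0.96 at short exposure and 0.22, 0.32 and 0.42 at long exposure. OsbZIP23, which acts in ABA responses of rice, was higher at 1.05, and that call was lost under normexp with an offset of 50 (0.97 with loess), without short replicate 3 (0.97) and without long replicate 3 (1.00).

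ABC transporters are pumps that use ATP to move many kinds of compounds. Of 74 tested loci 18 were higher (24.3%) and 2 lower (2.7%), where 5.71% and 2.88% of all tested loci were called. The median difference was 0.19. Os08g0384500 had 5.17, 4.69 and 4.09 at short exposure, at least 10.2-fold above a dim control, and 0.82, -0.60 and 0.26 at long exposure. Os01g0609300 was measured in both channels on all arrays, with 4.16, 4.44 and 4.57 at short exposure and 1.12, 0.44 and 0.95 at long exposure. The 2 ABC genes called lower, Os03g0281900 and Os05g0384600, had short ratios around 0 and long ratios of 1.92, 1.67 and 1.27 in Os03g0281900 and 1.78, 1.61 and 1.07 in Os05g0384600. Signals of both were lower at short exposure in both channels, with log2 differences of -3.60 and -3.32 in FA roots and -2.09 and -2.03 in control roots.

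MOP transporters are the family of multidrug exporters of the MATE type. They were higher for 8 of 33 loci (24.2%) and lower for 1 (3.03%), and without long replicate 3 for 5. Over all tested loci the shares were 5.71% higher and 2.88% lower. Without short replicate 2 or long replicate 2, 2 were lower, and under every normexp setting none was. In single channels the FA signal was called higher for 2 and lower for 2, and the control signal lower for 4. Os10g0345100 had 3.07, 3.75 and 3.30 at short exposure and 0.64, -0.02 and 0.99 at long exposure, and its difference of 2.84 was the sum of an FA signal that was higher by 0.95 and a control signal with a difference of -1.89. Of 10 sulfate transporters of the SulP family 5 were higher (50%) and none lower, with a median difference of 0.70. Os08g0406400 had 1.23, 1.29 and 0.93 at short exposure and -0.36, -0.38 and -0.75 at long exposure, and Os08g0101500 had 2.15, 2.15 and 1.90 at short exposure and 0.61, 0.76 and 0.73 at long exposure. Os01g0719300 differed by 1.87 (95% interval 0.79 to 2.96, adjusted p = 0.018) over widely spread short arrays. The call of Os03g0195800, a difference of 1.12 at an adjusted p of 0.0467, was lost without any of 4 single arrays (0.80 to 1.05), with no filter on signal (1.12) and without the shared variance (1.12), and its short ratios of 0.71, 2.14 and 1.68 overlapped the long ratios of 0.83, 0.27 and 0.09. The call of Os09g0240500 (1.03) was lost without any of 4 single arrays (0.96 to 1.00).

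Other transporter families had fewer calls, where 5.71% of all tested loci were higher and 2.88% lower. Of 98 MFS loci 7 were higher (7.14%) and 3 lower (3.06%), near the shares of all tested loci, or 5 lower without short replicate 2. The MFS gene Os11g0135900 had 2.06, 2.28 and 2.06 at short exposure and -0.02, -0.40 and -0.12 at long exposure. The MFS gene Os12g0133100 also differed by 1.72, but through the control channel (-1.60) rather than the FA channel (0.13). Among 53 mitochondrial carriers 3 were higher (5.66%) and 1 lower (1.89%), the last lost under every normexp setting and without short replicate 2 or long replicate 3. Os09g0454600 of this family had the tight values 3.80, 3.94 and 3.93 at short exposure and 0.77, 0.68 and 0.66 at long exposure. Its difference was 3.19 (95% interval 2.99 to 3.39, adjusted p = 1.53e-05). Of 76 DMT loci, the drug and metabolite transporter superfamily, 5 were higher (6.58%) and 5 lower (6.58%, or 1 locus under normexp with an offset of 50). Os12g0518200 was among those higher, with 3.70, 3.87 and 3.15 at short exposure and 0.24, -0.86 and -0.60 at long exposure. It was not well above background in both channels on all arrays, so its ratios rest partly on dim signals. Zinc and iron transporters of the ZIP family had 2 of 13 higher (15.4%), Os07g0232800 (2.19) and Os05g0198400 (1.97). Of 40 amino acid and auxin permeases (AAAP) 3 were higher (7.5%) and 1 lower (2.5%), or 3 lower without short replicate 1. The AAAP gene Os02g0191300 had 1.55, 2.40 and 1.63 at short exposure and 0.24, 0.13 and 0.15 at long exposure.

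P-type ATPases, ion and lipid pumps, had 3 of 35 loci higher (8.57%, against 5.71% of all tested loci) and none lower. All 3 were described as phospholipid-transporting ATPases. Os03g0326100 had 4.39, 3.53 and 4.65 at short exposure, at least 12.7-fold above a dim control, and 0.64, 1.27 and 0.66 at long exposure. Its neighbour in locus number, Os03g0326200, had 2.66, 2.29 and 2.69 at short exposure and 0.13, 0.20 and 0.97 at long exposure, and Os05g0100600 had 1.36, 1.26 and 1.14 at short exposure and 0.11, 0.13 and 0.02 at long exposure. Peptide transporters (POT) had 4 of 49 loci higher (8.16%) and 2 lower (4.08%, against 2.88% of all tested loci), or 1 lower without short replicate 3 or long replicate 2. Among those higher was Os02g0699000, with 2.58, 2.45 and 1.44 at short exposure and 0.45, 0.32 and -0.01 at long exposure. Of 7 ammonium transporters Os01g0831300 was lower, with -1.33, -2.29 and -1.30 at short exposure and -0.60, -0.09 and -0.27 at long exposure, a call lost under normexp with an offset of 50 (-0.77 with loess) and, just short of the limit, without short replicate 2.

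Aquaporins (MIP) are channels for water and small solutes. Of 27 aquaporins 1 was higher and 2 lower, which is 3.7% and 7.41% against 5.71% and 2.88% of all tested loci. Above 0 were 8 of the 27 differences, where 8548 of all 19750 were, and the median was -0.29. The increase was lost without short replicate 2 and without long replicate 3, and without long replicate 2 the counts were 2 higher and 1 lower. Lsi1, the aquaporin that takes silicon into rice roots, had -0.97, -0.69 and -1.02 at short exposure, against 0.21, 0.52 and 0.66 at long exposure, a difference of -1.36 (95% interval -1.70 to -1.02, adjusted p = 0.000639). Lsi2, the silicon efflux transporter that works with it, had -0.89, -0.38 and -0.81 at short exposure and 0.34, 0.27 and 0.42 at long exposure. Both genes were thus below the control at short and above it at long exposure on every array. The Lsi2 difference of -1.04 was near the limit and the call was lost under 4 scalings (-0.91 to -0.99), without short replicate 1 (-0.94) and without short replicate 3 (-0.98). The other 3 tested root markers differed by -0.20 to -0.10 and were not called.

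Among cell wall genes, of 15 arabinogalactan proteins (AGP), which are wall and membrane proteoglycans, 14 had a difference below 0, with a median of -0.43 against -0.06 over all tested loci, of which 8548 of 19750 were above 0. Of the 15, only Os09g0476800 was called. It had -0.29, -0.64 and -0.37 at short exposure and 0.72, 0.65 and 0.66 at long exposure, a difference of -1.11 (adjusted p = 0.000474), and the call was lost under all 3 normexp settings (-0.82, -0.82 and -0.90). Of 20 GH28 genes, the polygalacturonases that cut pectin, 4 were lower (20%) and 1 higher (5%), with a median of -0.32. Over all tested loci the shares were 2.88% lower and 5.71% higher. Os01g0891100 had 0.33, 0.71 and 0.29 at short exposure and 2.61, 1.88 and 1.44 at long exposure, so the long ratios were high. Os01g0636500 had -1.48, -1.88 and -0.91 at short exposure and -0.22, -0.09 and 0.25 at long exposure, so the short ratios were low. Os05g0542800 was the one called higher, with 1.98, 2.23 and 1.89 at short exposure and -0.03, 0.01 and -0.03 at long exposure.

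Of 39 expansins, which loosen the wall, 3 were lower (7.69%) and 1 higher (2.56%), and 5 were lower without long replicate 3. Os10g0439200 had 0.26, 0.43 and 0.10 at short exposure and 2.40, 1.63 and 1.21 at long exposure, and Os03g0102700 had -0.96, -1.43 and -1.44 at short exposure and -0.13, 0.14 and 0.08 at long exposure. Of 8 pectin methylesterases Os06g0193200 was lower, with -1.08, -1.50 and -1.60 at short exposure and -0.04, 0.32 and 0.11 at long exposure. That difference of -1.52 lay mostly in the control channel (1.20), against -0.32 in the FA channel. Of 30 cellulose-synthase-like genes 1 was lower (3.33%, against 2.88% of all tested loci), and the median was -0.30. Among 21 xyloglucan endotransglucosylases (XTH), which cut and rejoin wall xyloglucan, 2 were higher (9.52%) and 1 lower (4.76%). Over all tested loci the shares were 5.71% higher and 2.88% lower. Os03g0108300 had 3.54, 4.18 and 4.58 at short exposure, at least 6.29-fold above a dim control, while neither channel was well above background at long exposure. Os07g0480800 had 1.56, 1.29 and 1.42 at short exposure and 0.09, 0.05 and 0.26 at long exposure, while Os06g0697000 had -0.73, -0.66 and -0.56 at short exposure and 0.53, 0.66 and 0.37 at long exposure, and the call of Os06g0697000 was lost under normexp with an offset of 50 and loess (-0.99).

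Glucan-cutting enzymes that also act in defence had single calls. Of 47 GH17 genes, the beta-1,3-glucanases, 2 were higher (4.26%) and 1 lower (2.13%), where 5.71% and 2.88% of all tested loci were called. Without short replicate 2, 1 was higher, and 2 were lower without short replicate 1 and none without long replicate 2. The GH17 genes called higher were led by Os02g0532900 with 1.53, 1.51 and 1.91 at short exposure and -0.19, 0.40 and -0.10 at long exposure. Of 11 GH18 chitinases 2 were higher (18.2%) and 1 lower (9.09%). The class III chitinase Os06g0356800 had 2.98, 3.46 and 3.23 at short exposure and 0.49, 0.39 and 0.48 at long exposure, a difference of 2.77 (95% interval 2.46 to 3.07, adjusted p = 3.83e-05), so that FA was moderately above the control at long exposure and far above it at short exposure. The other increase, Os01g0860500 (1.08), was lost without short replicate 2 (0.98) and without long replicate 3 (0.89).

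**Figure D4:**
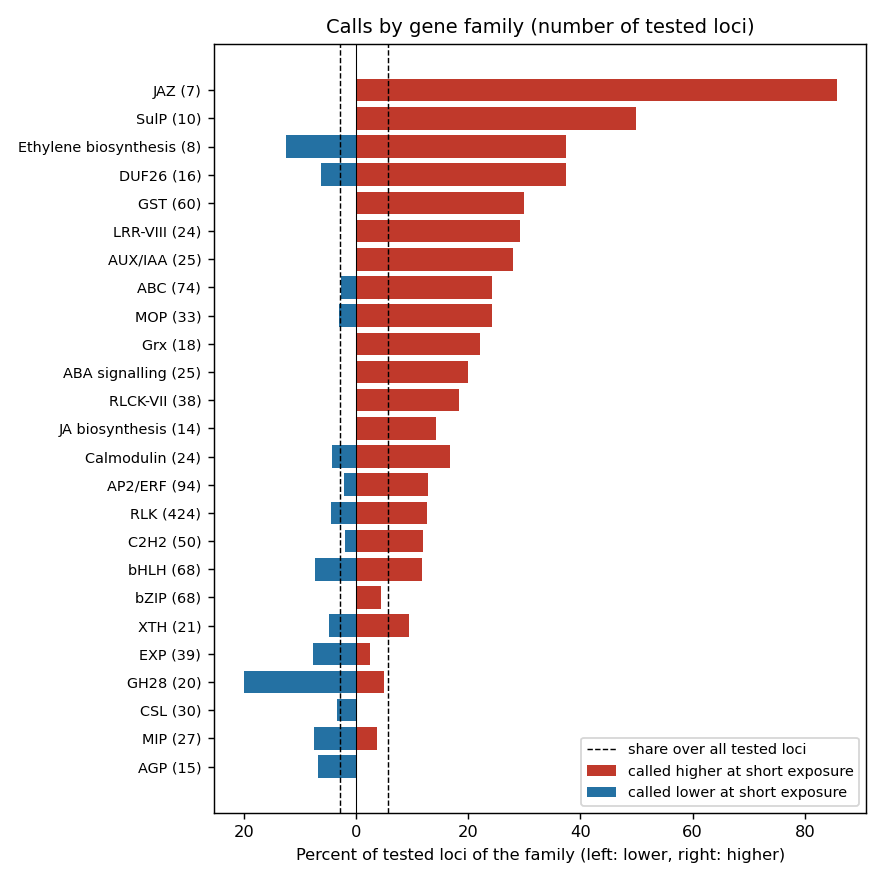
Percent of the tested loci of 25 gene families called higher (red, to the right) or lower (blue, to the left) at short exposure, with the number of tested loci in brackets and dashed lines at the shares over all tested loci, 5.71% higher and 2.88% lower. Of the families drawn, JAZ has the longest red bar and GH28 the longest blue bar, and families with under 20 loci rest on few calls.

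Few loci answered FA in opposite directions at the 2 exposures. Called, without overlap and with means of at least 1 in one exposure and at most -1 in the other were 7 loci up at short exposure and 1 locus down. The EF-hand calcium-binding gene Os03g0769500 had 2.47, 2.35 and 1.95 at short exposure and -1.15, -1.03 and -1.30 at long exposure. The class B acid phosphatase Os07g0681200 had 1.89, 1.97 and 1.83 at short exposure and -1.03, -1.04 and -1.25 at long exposure, with a difference of 3.00 (95% interval 2.78 to 3.23, adjusted p = 1.67e-05) and signals above background on all arrays. Os05g0399800, Os11g0570000 and Os03g0103900 were dimmer, and at short exposure FA was at least 5.19-fold above the control for Os05g0399800 and at least 4.37-fold for Os11g0570000. At long exposure no array read FA well above background for these 3 loci, and at most 1 array did so for the control, so their negative long ratios compare dim signals. The opposite case was Os01g0226600, of a family of C4-dicarboxylate and malate transporters, with -1.24, -0.84 and -1.47 at short exposure and 1.36, 1.69 and 1.23 at long exposure. Its FA signal was not well above background at short exposure and at least 2.04-fold below the control.

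Other loci kept their response. For 85 loci both means were at least 1 and the interval of the difference lay within -1 and 1, and for 21 loci both means were at most -1 with such an interval. The protein kinase gene Os04g0655300 had 2.46, 2.37 and 2.27 at short exposure and 2.47, 2.04 and 1.47 at long exposure, a difference of 0.37 (95% interval -0.18 to 0.91). Os09g0480200 had 2.24, 3.06 and 1.73 at short exposure and 2.31, 2.42 and 2.11 at long exposure, with an interval of -0.65 to 0.78. On the lower side, the UDP-glucosyltransferase Os07g0201500 had -1.82, -1.93 and -1.42 at short exposure and -1.75, -1.36 and -1.68 at long exposure. The xyloglucan endotransglycosylase Os02g0280300, a wall enzyme, had -1.74, -1.38 and -1.63 at short exposure and -1.15, -1.05 and -1.57 at long exposure. The oxygenase Os09g0353400 had an adjusted p of 0.0125, but its difference of -0.53 was small beside ratios of -1.61, -1.57 and -1.90 at short and -1.10, -1.10 and -1.30 at long exposure.

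A difference between ratios can lie in the FA roots, in the water controls or in both, and the channels were therefore also fitted singly over the 18833 loci with a ratio on all arrays for their probe. In FA roots 1163 loci (6.18%) had a higher and 963 (5.11%) a lower signal at short than at long exposure. In water controls 328 (1.74%) were higher and 422 (2.24%) lower, although no FA was present. The numbers in the controls depended on single arrays, with 197 to 452 higher and 272 to 587 lower when 1 array was left out. The sets without long replicate 2 (197), without long replicate 1 (203) and, for lower loci, without short replicate 2 (272) differed most from the full set downward.

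Of the 1098 loci in this fit whose ratio was called higher, the FA channel was called higher for 724 and the control channel lower for 134, both for 44, and neither for 284. The control moved further than FA for 201 of the 1098. Median differences were 1.39 in FA roots and -0.32 in water controls. Of the 556 loci whose ratio was called lower, the FA channel was called lower for 338 and the control channel higher for 38, both for 1, and neither for 181. Median differences were -1.20 in FA roots and 0.03 in water controls. For most called loci the FA channel was thus called in the direction of the ratio. It was not called so for 34.1% of the loci higher and 39.2% of those lower. AOX1b, OsACO7, GA20ox1, Os06g0193200 and Os12g0133100 were among the called loci where the control signal differed more. Single-channel signals of different arrays carry array and labelling differences, which a ratio cancels, and the exposures lay on different slides. What set the water controls of the exposures apart, seedling age at harvest or slide among the possibilities, was not tested.

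**Figure D5:**
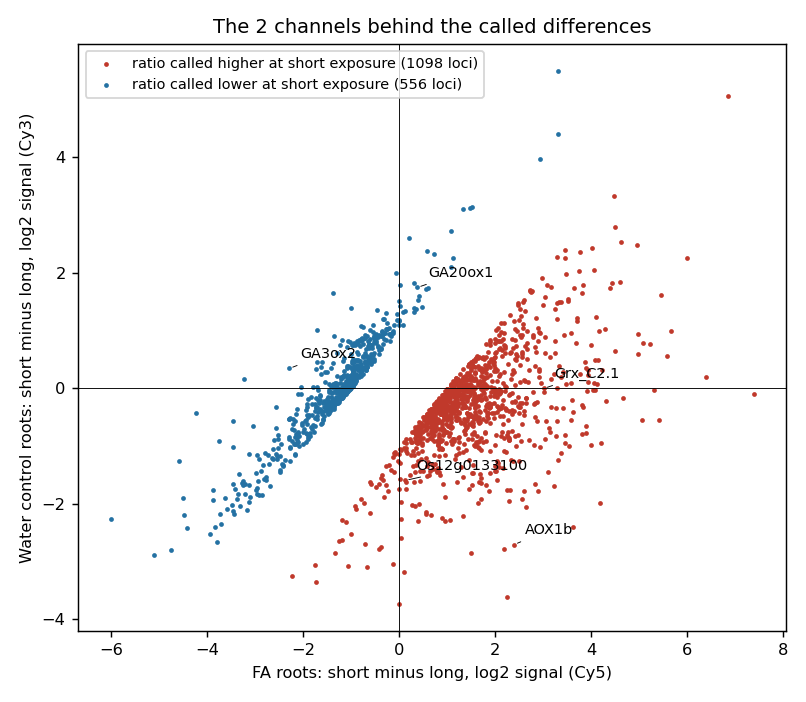
Log2 signal at short minus long exposure in FA roots (horizontal axis, Cy5) and in water control roots (vertical axis, Cy3) for loci whose ratio was called higher (red, 1098 loci) or lower (blue, 556 loci) at short exposure. Red points spread to the right of 0 and blue points to the left, while GA20ox1 lies high above the horizontal axis and Os12g0133100 and AOX1b below it, where the control channel differed.

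Gene descriptions were at hand for 3765 of the tested loci, those that the study's tables list. These were listed because they responded or belong to a family of interest, and 821 of them were called higher and 226 lower, so counts by description are no independent evidence. UDP-glucosyltransferases were called higher for 11 of 19 described loci, cytochrome P450 enzymes for 13 of 31 (2 lower), WRKY transcription factors for 9 of 14, chitinases for 7 of 16 and RING-finger genes for 8 of 11. All 4 described genes of phenylalanine ammonia-lyase, the entry enzyme of phenolic synthesis, were called higher. Os02g0626600, one of these, had 2.53, 2.44 and 3.09 at short exposure and 0.18, 0.83 and -0.15 at long exposure. The 4-coumarate-CoA ligase gene Os08g0448000, of the same pathway, had 1.77, 1.89 and 1.91 at short exposure and 0.03, 0.23 and -0.16 at long exposure.

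WRKY71 (Os02g0181300), a defence regulator of rice, had 2.88, 3.32 and 3.22 at short exposure and 0.47, 0.69 and 0.35 at long exposure, a difference of 2.64 (adjusted p = 5.33e-05), and WRKY10 (Os01g0186000) had 2.67, 2.82 and 2.64 at short exposure and 0.81, 0.39 and 0.61 at long exposure. The P450 gene Os03g0760200 had 3.38, 3.37 and 3.22 at short exposure and 0.15, -0.04 and -0.21 at long exposure, with an FA difference of 1.71 and a control difference of -1.65. Os01g0701400, another P450 gene, was lower, with -1.46, -1.32 and -1.33 at short exposure and 0.42, 0.86 and 0.02 at long exposure, and there the control signal was higher at short exposure (2.38). The NAC gene Os01g0816100 had 3.13, 2.73 and 2.38 at short exposure and 0.88, -0.07 and 0.04 at long exposure, whereas the NAM-like Os04g0515900 had -1.76, -1.39 and -2.00 at short exposure and 0.09, 0.37 and -0.12 at long exposure. The metallothionein-like genes Os12g0571000 and Os12g0568200, encoding small metal-binding proteins, were lower at short exposure, at -1.66 and -1.47. In both, all 3 long ratios were above 1. The class IV heat shock gene Os04g0445100 had -0.23, -0.57 and -0.35 at short exposure and 1.20, 1.17 and 1.30 at long exposure. The low-molecular-weight heat shock gene Os01g0135900 had 1.36, 1.40 and 1.35 at short exposure and -0.15, -0.44 and -0.35 at long exposure. Of 9 described heat shock loci 4 were called higher and 1 lower, so called members of this word list went both ways. These genes were chosen after their values were seen, as bright members of their word lists.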

How the data were processed

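Scanner output of the 6 two-colour arrays was used, with 45151 spots each. Per the file headers, the authors extracted fluorescence intensities with Agilent Feature Extraction, subtracted background and normalized the dyes by linear and LOWESS steps. The log10 ratio of Cy5 (FA) over Cy3 (control) was deposited per spot, set to exactly 0 where neither signal was significant. A table of log2 ratios of the same arrays was deposited by the authors as well and served as an alternative. It matched the scanner ratios of nearly all probes on each array, so its scale and direction are those of the scanner files.

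Log10 ratios were converted to log2. Array control features were dropped, as was any spot that the software marked non-uniform or an outlier of its replicates, and the rest were averaged per probe. A probe was tested if a processed signal reached 100 in either channel on any array and if at least 2 arrays of each exposure had a ratio, which held for 28357 of 42418 probes. Short minus long was fitted with lmFit and eBayes in limma 3.58.1 under R 4.3.3, adjusted by Benjamini-Hochberg over all tested probes and called at an adjusted p under 0.1 with a difference of at least 1. All adjusted p-values, intervals and calls come from this fit unless another is named. With 3 arrays against 3, an exact two-sided permutation test cannot go below 0.1, so none was used. P-values measure the spread between the 3 biological replicates of each exposure, whose small number limits the precision. No spot was saturated. Each locus was read at its brightest probe. Single channels were compared by a separate-channel fit after Aquantile normalization (intraspot correlation 0.758). A fold written as "at least" sets the mean of the brighter channel against, per array, the higher of the lowest signal that was well above background and the dim signal itself. Raw median signals were corrected by normexp as alternatives, and so were other filters, thresholds and tests. On simulated data with 200 changed probes, 96 of 100 probes changed by 1.5 and 99 of 100 changed by 3 on the log2 scale were called, with 4 unchanged probes called.

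Loci are those of RAP-DB as the array files give them. Gene lists follow the study's families, and word lists were read only over the loci its tables describe. For loci raised at short exposure, a list of the study gave the descriptions out of order. They were re-paired in locus order, which matched the study's other descriptions for 210 of 210 loci, against 0 as printed. Loci were named by rule. The 10 largest differences in each direction were taken among called loci above background in both channels of all arrays, without overlap between the exposures. Also named were the loci with opposite responses and loci with like responses at both exposures. The leading called members of each list were named too, with all members of short lists. Members and lists were chosen with earlier results of these data known. Promoter sequences were not analysed here. Slides follow the codes in the file headers, whereas the methods give 3 slides for each exposure.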

Additional observations from a re-analysis of the deposited data

Results flagged for a closer look

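The difference between the exposures was itself tested for every locus, and 1127 loci were higher and 569 lower at short exposure. Among the loci with opposite responses, the fitted differences were 4.54 for Os05g0399800, 3.79 for Os11g0570000, 3.64 for Os03g0103900, 3.42 for Os03g0769500 and 3.00 for Os07g0681200 on the log2 scale, and -2.61 for Os01g0226600. Only Os03g0769500 and Os07g0681200 were well above background in both channels on all arrays. For Os05g0399800, Os11g0570000 and Os03g0103900 the FA signal was not so on any array of long exposure, and for Os01g0226600 on none of short exposure, so the sizes of these 4 differences, and the sign of the long ratios of the first 3, rest on dim signals.

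The array also holds probes without a locus, which no locus count above includes. Of 147 such probes tested, none was called higher and 3 were called lower, where 2.5% of all probes were called lower, so the number is no larger than that share would give. All 3 carry names of microRNA transcripts, osa-miR399i (mature part, difference -1.69), osa-miR399b (3′ part, -1.82) and osa-miR393 (5′ part, -1.08). The osa-miR399b and osa-miR393 probes were not well above background in both channels of all arrays. The osa-miR399i probe was, with ratios of 0.17, 1.12 and 0.14 at short exposure and 2.88, 2.08 and 1.55 at long exposure. MicroRNAs of the miR399 family are known for their induction under phosphate shortage. Which transcript, precursor or mature, bound these probes was not tested.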

How the results depend on the processing

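No call of a named gene changed direction under any alternative run, and a named gene lost its call under an alternative in 187 cases, against 7980 in which the call, or the value of a gene without one, held. In the other 107 cases the value of a gene without a call moved by more than its replicate SD. Without the limit of 1 on the difference, 5830 probes (3813 loci) were higher and 7409 probes (5432 loci) lower, so that higher loci made up 41.2% of calls. Raw signals corrected by normexp left 294 probes (240 loci) lower with an offset of 50 and loess, 309 (252) with an offset of 50 and median centring, and 431 (348) without offset, and the last pair of settings was chosen after the data were seen. When 1 array was left out, 1498 to 1689 probes (1044 to 1160 loci) were higher and 653 to 787 probes (519 to 623 loci) lower. The FA channel then had 1080 to 1368 loci higher and 850 to 1212 lower, and the control channel 197 to 452 higher and 272 to 587 lower, with 452 and 587 both reached without short replicate 3. Other filters, thresholds and tests kept the counts within 1.5 times, the t-test in its form for a pair of groups giving 1059 loci higher and 523 lower. With the replicate number as a block, 1127 loci were higher and 561 lower, but same-numbered arrays deviated together at correlations of only -0.08, -0.01 and 0.14, so the numbers do not pair the arrays. Slide as a random block gave 1127 and 562. No slide held both exposures, so that block could not tell slide from exposure. Each of the block fits covered 19275 loci, those with a ratio on all arrays. Medians of lists near 0, among them RLK, AP2/ERF, C2H2, expansins and MFS, changed sign under some scalings. Ratios of dim genes rest on signals near background.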
